A study of Mus musculus with 15 samples.

Results

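Oxidative phosphorylation genes are the nuclear genes whose products make up complexes I to V of the mitochondrial inner membrane. They were chosen by gene name on an Agilent mouse array: Nduf genes of the a, b, c, s and v series for complex I, the Sdh genes for complex II, Uqcr for complex III, Cox4 to Cox8 for complex IV and Atp5 for complex V. The rule found 84 of 27376 gene names, with 36, 4, 8, 18 and 18 members in complexes I to V, read by 119 probes. Each gene was read by its probe of highest mean signal. Of the 84 members, 80 were bright enough to be tested. The other 4 were the complex IV forms Cox4i2, Cox7b2, Cox8b and Cox8c, of which Cox4i2 was above background on 2 of 15 arrays and the others on 0. The names also caught 4 entries that are not subunits in a strict sense: the pseudogene Atp5c1-ps, Atp5s (now Dmac2l), Atp5sl (now Dmac2) and Cox7a2l, a factor that joins complexes into supercomplexes.

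The study grew expandable hepatocytes, liver cells that divide in culture, from 3 mice for 21 days. Cells in expansion medium are called eHep and those labelled mHep were taken to be the same cells in differentiation medium, which the labels do not spell out. Mice 129S1-No1 and C57B6-No1 gave 3 arrays in each medium, and 129S1-No2 gave 1 in each, for 7 eHep and 7 mHep arrays. Primary hepatocytes, taken from C57B6 liver by collagenase perfusion, gave 1 array, so no spread of the primary cells was measured. The mHep array of 129S1-No2 was assigned by its title, since its source name reads eHep. No transgene or knockout is named for any group, and ages are not given in the sources used here. Whether arrays of 1 mouse came from separate cultures is not stated.

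Complex I takes electrons from NADH and complex II takes them from succinate in the TCA cycle. Complexes III and IV pass them through cytochrome c to oxygen, and the protons pumped by complexes I, III and IV drive complex V, the ATP synthase. Hepatocytes are rich in mitochondria and pay for urea, glucose and protein synthesis largely by this route. Some complex IV subunits exist in pairs, with one form found in most tissues and another in muscle, heart or testis.

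Levels are log2 signals with each array's own 75th percentile set to 0, and a difference of 1 is 2-fold. Arrays were scanned in 2 batches, and the earlier one held array 3 of C57B6-No1 in each medium, the arrays of 129S1-No2 and that of primary cells. The 75th percentile signal ran from 249 to 827 on the cultured arrays and was 78.3 on the primary array. Probes well above background made up 48.8% to 61.9% of a cultured array and 36.3% of the primary one. Of 8 hepatocyte markers on the array, including albumin (Alb), 8 were above background in primary cells, 7 on all mHep arrays and 4 on all eHep arrays. The endothelial markers summed to 1.66 in primary cells (log2) and to between -3.90 and -1.13 in culture. The macrophage markers summed to 2.04 in primary cells and to between -2.62 and 1.52 in culture. The part of these other cells in the results below was not tested. In bulk RNA, fewer cells of a type and less RNA per cell cannot be told apart.

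Stretches of 6 promoters are shown as background, and no link between these sequences and the levels was tested. Promoters of 69 of the 84 members were matched by symbol in the RefSeq table (build GRCm38.p6), each with 250 bases before and 50 after the start of the gene. They were searched on both strands for 4 cores of 7 letters, without regard to overlap: GCATGCG of NRF1, CCGGAAG of ETS factors such as GABPA, AAGATGG of YY1 and AAGGTCA, a half-site bound by ERR receptors. NRF1, GABPA, YY1 and the ERR receptors are known regulators of nuclear genes for mitochondria. The NRF1 core lay in 11 member promoters (15.9%), against 3.64% of 27025 promoters in all. The ETS core lay in 16 (23.2%, against 9.08%), the YY1 core in 12 (17.4%, against 6.46%) and the ERR half-site in 8 (11.6%, against 4.66%). The 200 bases before the start are printed in the direction of the gene, with matches in capitals. They are from Sdhb, the member furthest below primary cells, and from ubiquitous and tissue-restricted forms of complex IV subunits.
Sdhb, chr4:140961071-140961270 (+ strand): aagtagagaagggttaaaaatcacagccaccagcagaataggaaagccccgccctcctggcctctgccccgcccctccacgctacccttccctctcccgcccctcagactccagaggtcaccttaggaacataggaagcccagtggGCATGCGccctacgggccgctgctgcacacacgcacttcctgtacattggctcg
Cox6a1, chr5:115348959-115349158 (- strand): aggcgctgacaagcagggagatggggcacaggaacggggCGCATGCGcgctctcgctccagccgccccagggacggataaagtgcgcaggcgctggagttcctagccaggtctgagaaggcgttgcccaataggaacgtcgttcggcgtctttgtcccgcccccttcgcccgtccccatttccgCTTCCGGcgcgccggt
Cox6b1, chr7:30626115-30626314 (- strand): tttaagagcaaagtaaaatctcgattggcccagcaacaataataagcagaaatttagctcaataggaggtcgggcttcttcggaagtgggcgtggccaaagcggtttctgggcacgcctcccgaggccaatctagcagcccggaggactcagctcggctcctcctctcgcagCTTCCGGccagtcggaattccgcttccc
Cox6b2, chr7:4753095-4753294 (- strand): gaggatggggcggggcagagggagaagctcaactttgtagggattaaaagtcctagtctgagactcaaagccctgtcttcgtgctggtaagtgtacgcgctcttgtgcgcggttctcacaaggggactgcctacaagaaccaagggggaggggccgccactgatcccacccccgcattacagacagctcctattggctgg
Cox7a2, chr9:79759854-79760053 (- strand): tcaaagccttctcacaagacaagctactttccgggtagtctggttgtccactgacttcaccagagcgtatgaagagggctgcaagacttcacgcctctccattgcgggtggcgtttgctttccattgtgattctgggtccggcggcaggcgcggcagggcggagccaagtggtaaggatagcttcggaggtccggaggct
Cox7a1, chr7:30183971-30184170 (+ strand): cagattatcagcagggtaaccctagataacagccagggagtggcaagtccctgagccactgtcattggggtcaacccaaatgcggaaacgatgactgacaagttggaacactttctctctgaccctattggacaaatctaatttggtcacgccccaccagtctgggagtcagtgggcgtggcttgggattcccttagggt
The windows of Sdhb and Cox6a1 held both the NRF1 and the ETS core (the ETS core of Sdhb lies after the start and is not printed), and Cox6b1 held the ETS core. None of the 4 cores was found in the windows of Cox7a2, Cox7a1 and Cox6b2.

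The first comparison asks whether the medium changed these genes. Between mHep and eHep none of the 80 members tested rose or fell, while 1.86% of 14595 genes did (limma on 6 mouse means with mouse as a block, adjusted p under 0.05). The median member difference, mHep minus eHep, was 0.0034, against -0.09 over all genes tested. The medians of complexes I to V were 0.04, 0.05, -0.03, -0.02 and -0.03. No member reached an unadjusted p under 0.05 in this fit, while 2180 of the 14595 genes did. The 95% interval of 69 of the 80 members lay within 1.5 of 0 on both sides. The median full width of the interval, from its lower to its upper end, was 2.11. Differences that lie within a member's interval are left unresolved by the design. When single arrays stood in for mice, 1 member was higher and 3 were lower, where 34.4% of all genes were called. Within the later scan 2 were higher and 14 lower, where 50.3% of all genes were called. Without the mouse 129S1-No1, Cox7a1 alone was called, at 2.39 (adjusted p = 0.0150), where 9.01% of all genes were called.

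**Figure D1:**
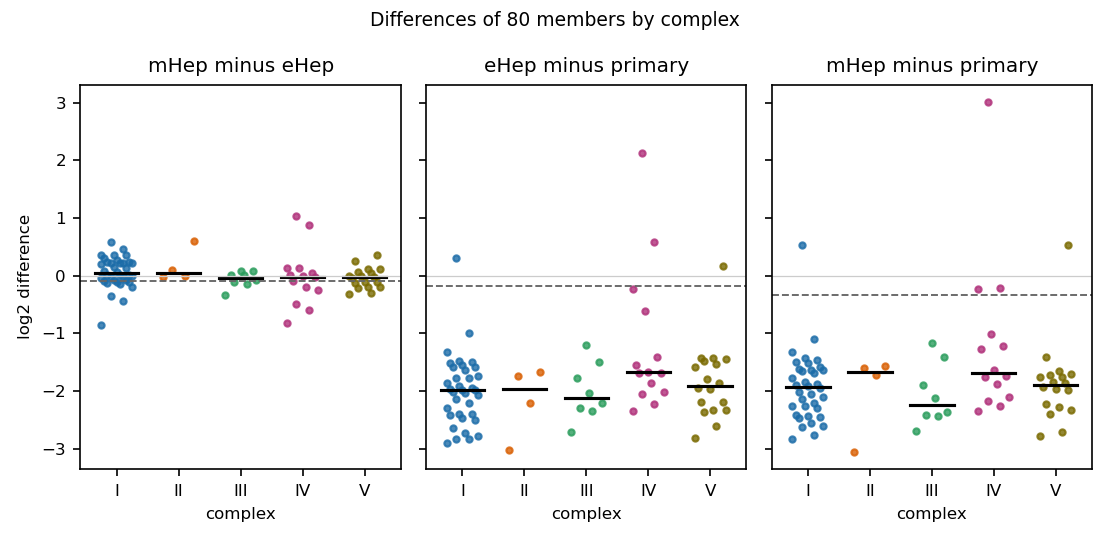
Log2 difference (vertical axis) of each of the 80 tested members, by complex, for mHep minus eHep, eHep minus primary and mHep minus primary; black bars are complex medians and the dashed line is the median of all genes tested. Complex medians of mHep minus eHep lie between -0.03 and 0.05, and those against primary cells between -2.24 and -1.66.

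In complex I, Ndufv1, which holds the NADH site, stood at 5.89 ± 0.95 in eHep and 5.87 ± 0.36 in mHep (SD, n = 3 mice), a difference of -0.02 with a 95% interval from -1.06 to 1.02. Ndufs1, the largest iron-sulfur subunit, differed by 0.22 (interval from -0.69 to 1.13) and was higher in mHep in all 3 mice. Under quantile normalization, another scaling, it was lower in mHep of 129S1-No2 (-0.44). None of the other complex I members passed either.

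Complex II is also an enzyme of the TCA cycle. Its iron-sulfur subunit Sdhb stood at 4.08 ± 0.60 in eHep and 4.05 ± 0.29 in mHep. The membrane anchors Sdhc and Sdhd differed by 0.0040 and 0.10. The flavoprotein subunit Sdha read 1.02, 1.08 and 1.01 in eHep of 129S1-No1, 1.53, 1.61 and 1.83 in C57B6-No1 and 1.62 in 129S1-No2. In mHep it read 1.40, 1.36 and 1.40, then 2.27, 2.12 and 2.20, and 2.55. It was higher in mHep in each mouse, by 0.35, 0.54 and 0.94, and on average by 0.61 ± 0.38 (adjusted p = 0.521). A second bright probe of Sdha gave -0.10, the widest gap between probes of any member.

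Complex III, with the core proteins Uqcrc1 and Uqcrc2 and the Rieske protein Uqcrfs1, ranged from -0.34 (Uqcrc1) to 0.09 (Uqcr10). Complex V ranged from -0.32 (Atp5b, the catalytic beta subunit) to 0.37 (Atp5s). Atp5a1, the alpha subunit, read 6.85 ± 0.67 in eHep and 6.86 ± 0.11 in mHep. Among the subunits of the rotor and stalk, Atp5c1 and Atp5d each differed by -0.19 and Atp5e by 0.04. The membrane ring is coded by Atp5g1, Atp5g2 and Atp5g3, which differed by -0.11, -0.30 and -0.10. None of these values passed the test.

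Complex IV had the widest range, from -0.82 (Cox6b2) to 1.04 (Cox7a1), and both ends were tissue-restricted forms. The ubiquitous nuclear subunits Cox4i1, Cox5a and Cox5b differed by -0.49, -0.19 and -0.24. Members with the same sign in all 3 mice numbered 7 of 80, among them Cox6a2, Sdha, Ndufa1 and Ndufs1 above 0, and Cox6b2 and Cox7a2l below. The value of Cox6a2 in C57B6-No1 was 0.00066. Under quantile normalization Cox6a2 (-0.06 in C57B6-No1), Ndufs1 (-0.44 in 129S1-No2) and Cox6b2 (0.06 in 129S1-No2) lost the shared sign. Sdha, Ndufa1 and Cox7a2l kept it. None of the 7 passed. By list, 0 of 22 core catalytic subunits tested and 0 of 14 tested of 18 isoforms that are restricted by tissue or condition passed between media. Of all genes tested, 1.86% did.

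The mice lay on different sides of 0, which was tested only between 129S1-No1 and C57B6-No1. In 129S1-No1, 75 of 80 members were below 0 in mHep and the median was -0.66. In C57B6-No1, 47 were above 0 and the median was 0.09. In 129S1-No2, 76 were above 0 and the median was 0.60, from 1 array in each medium. Other genes of like brightness, 836 with a mean level in the middle range of the members (4.74 to 7.11), had medians in the same order, at -0.78, -0.15 and 0.41. Under quantile normalization, which gives every array the same distribution, the member medians became 0.15, 0.17 and 0.30, and that of 129S1-No1 changed sign.

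**Figure D2:**
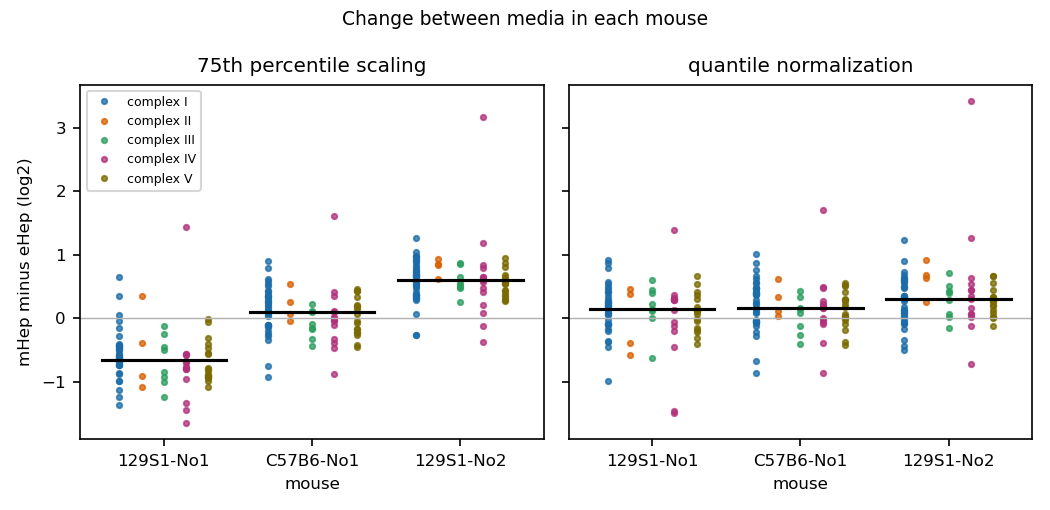
Change from eHep to mHep (log2, vertical axis) of each of the 80 tested members in each mouse, coloured by complex, with the median as a black bar, under 75th percentile scaling (left) and quantile normalization (right). The medians of -0.66, 0.09 and 0.60 on the left become 0.15, 0.17 and 0.30 on the right.

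Within 129S1-No1, tested over its 6 arrays, 16 members fell and 1 rose, where 44.5% of 15747 genes were called. The p-value of this fit covers the spread of arrays of 1 mouse and not of mice. Its eHep arrays all lay on 1 slide and its mHep arrays all on another. Their 75th percentile signals ran from 249 to 363 and from 627 to 727. Medium and slide thus cannot be told apart within this mouse. Cox4i1 fell by 1.34 (adjusted p = 0.00725), Ndufs7 by 1.24 (adjusted p = 0.00914) and Uqcrc1 by 1.24 (adjusted p = 0.0203). Ndufb5, an accessory subunit, rose by 0.64 (adjusted p = 0.0321). Under quantile normalization the same differences in this mouse were -0.20 for Cox4i1, -0.45 for Ndufs7, -0.63 for Uqcrc1 and 0.79 for Ndufb5, each with the same sign. Within C57B6-No1, where 25.2% of genes were called, Sdha alone rose, by 0.54 ± 0.17 (adjusted p = 0.0362), and no member fell.

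The difference of the 2 changes, C57B6-No1 minus 129S1-No1, passed for 1 member, Cox7a1, where 16.6% of genes were called. Cox7a1 is the form of subunit 7a of heart and muscle, and Cox7a2 that of liver and most tissues. Its eHep levels were 2.00, 2.42 and 2.27 in 129S1-No1, 2.34, 2.49 and 0.23 in C57B6-No1 and 0.56 in 129S1-No2. Its mHep levels were 0.31, 0.83 and 0.61 in 129S1-No1, 4.35, 3.38 and 2.13 in C57B6-No1 and 3.73 in 129S1-No2, and the primary level was 3.54. In 129S1-No1 every mHep array was below every eHep array, while the arrays of C57B6-No1 overlapped between media. Its change was -1.65 in 129S1-No1 but 1.61 in C57B6-No1 and, from single arrays, 3.17 in 129S1-No2. The interaction was 3.26 ± 0.88 (SE, adjusted p = 0.0310). It lay between 2.98 and 3.70 under every alternative run, and it passed in all but the fits without array 1 (adjusted p = 0.210) or array 2 (adjusted p = 0.198) of each mouse and medium. Without array 3 of each mouse and medium 6 members were higher and 1 lower in this contrast, where 17.2% of all genes were called. Without the earlier-scan arrays, which are array 3 of C57B6-No1 in each medium, 35 were higher and 1 lower, where 36.4% of all genes were called. The median member value was 0.72, against 0.25 over all genes and 0.68 over the 836 genes of like brightness, and 0.07 under quantile normalization. Cox7a2 differed by -0.01 between media over the 3 mice.

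The muscle markers Myh6, Myh7 and Ckmt2 were above background on none of the 15 arrays, and Ckm was above background on the primary array alone. The muscle list summed to between 0.53 and 3.06 in eHep (log2), between -2.91 and 0.32 in mHep and to -0.40 in primary cells. Of the 7 muscle markers, 2 were bright enough to be tested between media. Cardiac troponin T, Tnnt2, fell by 4.39 from eHep to mHep (adjusted p = 0.0280), and the other differed by -0.04. The part of this list in the values of Cox7a1 and Cox6a2 was not tested.

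A further pair of restricted forms of complex IV stood out by mouse or by culture. Cox6b2, the testis form of subunit 6b, read -3.01 in eHep and -3.13 in mHep of 129S1-No2. On the other cultured arrays it read from -0.81 to 2.02, and -0.92 in primary cells. Both arrays of 129S1-No2 were thus below every other array, while its common form Cox6b1 read 3.20 and 3.99 there and from 3.82 to 5.47 on the other cultured arrays. The other mouse of strain 129S1 did not share the low Cox6b2 reading. Cox6a2, the heart and muscle form of subunit 6a, read -2.99, -2.68 and -2.75 in eHep of 129S1-No1, -1.58, -1.80 and -0.65 in C57B6-No1 and -2.58 in 129S1-No2. In mHep it read -1.05, -1.38 and -1.66, then -1.66, -2.89 and 0.52, and -1.39 in 129S1-No2. On the primary array it read -4.38, below all 14 cultured arrays and not well above background.

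**Figure D3:**
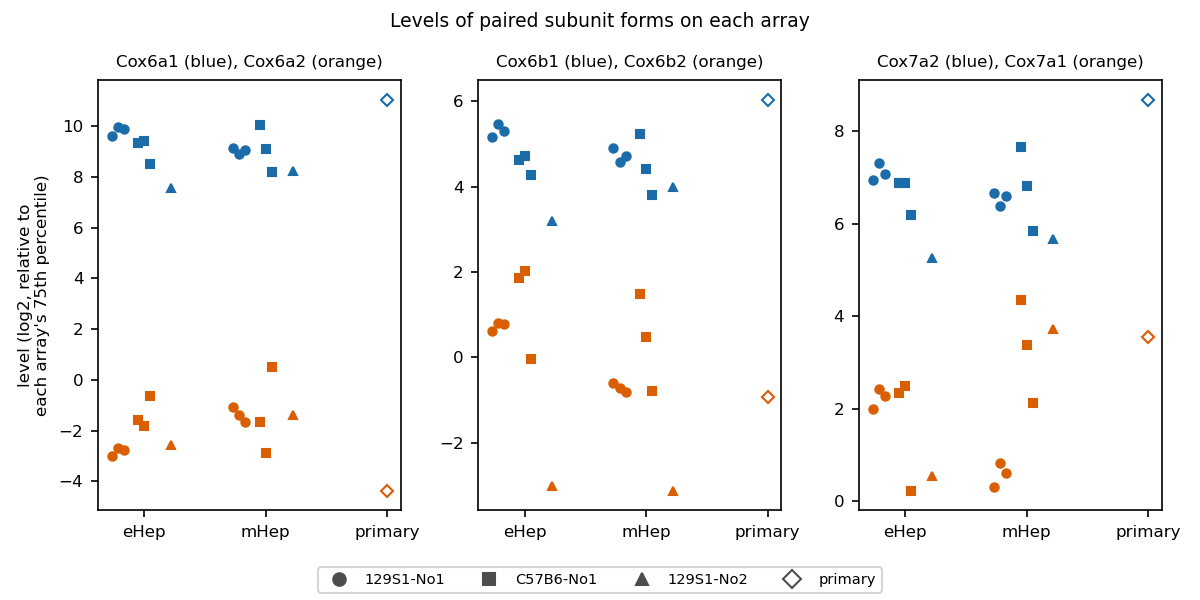
Levels (log2 relative to each array's 75th percentile) of 3 pairs of complex IV forms on each array, with the common form in blue and the restricted form in orange; the marker shape gives the mouse, and heights of different genes are not comparable since they come from different probes. Cox7a1 is lower in mHep than in eHep in 129S1-No1 and higher in the other mice, Cox6b2 is low on both arrays of 129S1-No2, and Cox6a2 is lowest on the primary array.

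The second question is how far the cultured cells stood from primary hepatocytes. In the fit against primary cells, 0 members were higher and 2 were lower in eHep, where 15% of 15176 genes were called (limma, adjusted p under 0.05 and a log2 difference of at least 1). In mHep 1 was higher and 1 lower, where 9.95% of genes were called. An unadjusted p under 0.05 was reached by 41 of the 80 members in eHep and 44 in mHep. Of all 15176 genes, 4733 in eHep and 4187 in mHep reached it. Both comparisons share the single primary array, which was assumed to vary as much as the mouse means of cultured cells. The count of lower members ran from 0 (without C57B6-No1) to 9 (without 129S1-No1) in eHep when 1 mouse was left out, and from 0 (without C57B6-No1) to 4 (without 129S1-No2) in mHep. The shares of all genes called in these fits were 5.03% and 19.8% in eHep and 2.02% and 11.6% in mHep.

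Before any test, the primary array stood out by level. It lay above all 14 cultured arrays for 73 of the 80 members, where it did so for 29.1% of all genes. The count was 34 of 36 in complex I, 4 of 4 in II, 8 of 8 in III, 10 of 14 in IV and 17 of 18 in V. The exceptions were Ndufb8, Ndufs1, Cox6a2, Cox6b2, Cox7a1, Cox7c and Atp5s. The median member level was 7.82 on the primary array, from 4.93 to 6.90 on the eHep arrays and from 5.56 to 6.71 on the mHep arrays. Under quantile normalization the medians were 6.40, from 5.83 to 6.37 and from 6.17 to 6.59, so the mHep arrays lay on both sides of the primary one. The primary array was then above all others for 25 members, against 21.5% of all genes, and below them for 6: Atp5b, Cox6a2, Ndufa12, Ndufc2, Ndufs1 and Uqcrc2. The share of all genes below all others was not counted, so the 6 cannot be set against it.

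**Figure D4:**
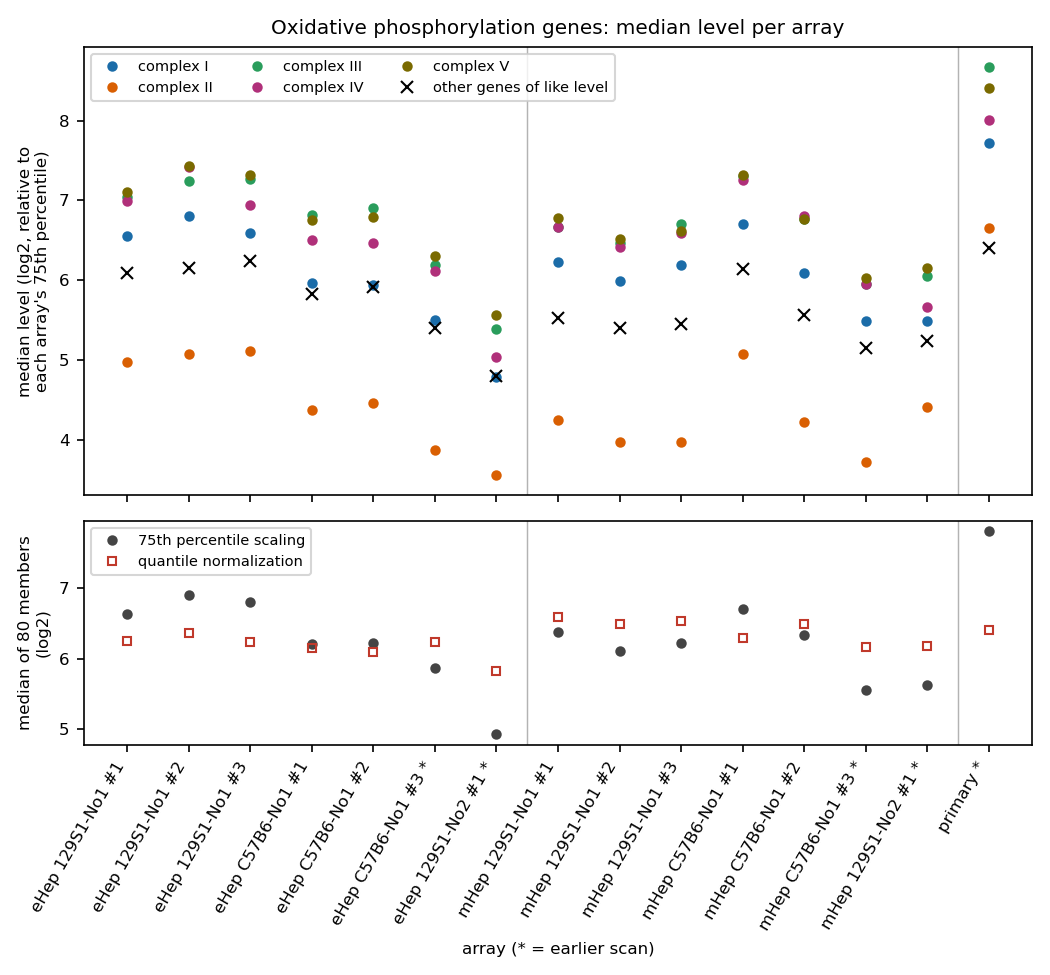
Top: median level (log2 relative to each array's 75th percentile) of the tested members of each complex and of 836 other genes of like level, on each of the 15 arrays; heights of different complexes come from different probes and are not compared. Bottom: median of the 80 tested members under 75th percentile scaling and quantile normalization, where the primary array reads 7.82 and 6.40.

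The median member difference from primary cells was -1.94 in eHep and -1.88 in mHep, against -0.18 and -0.33 over all genes tested. Other genes of like brightness had medians of -0.71 and -0.99. The medians of complexes I to V were -1.98, -1.97, -2.11, -1.67 and -1.90 in eHep, and -1.93, -1.66, -2.24, -1.68 and -1.90 in mHep. In eHep the member median was -2.78 in 129S1-No2, -1.84 in C57B6-No1 and -1.19 in 129S1-No1. In mHep, in the same order, it was -2.22, -1.73 and -1.76.

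The size of this gap depended on the scaling. Quantile normalization gave member medians of -0.40 in eHep and -0.22 in mHep, with the median of all genes at 0.33 and 0.24. The authors' deposited value table gave -0.40 and -0.21, and cyclic loess -1.11 and -0.86. Under these settings the calls were 1 higher and 1 lower in eHep (quantile and the authors' table) or 0 higher and 7 lower (cyclic loess). Of all 15176 genes, 2998 were called with quantile normalization, 3004 in the authors' table and 2330 with cyclic loess. Relative to all genes tested, all 5 complex medians were below 0 under each scaling and background setting in both media. The order of the complexes was not kept: complex III was lowest under 75th percentile scaling, and complex II under quantile normalization (-1.34 in eHep and -0.87 in mHep) and cyclic loess (-1.65 and -1.13). Complex IV was nearest to 0 in eHep under each of these settings, at -0.27 with quantile normalization.

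**Figure D5:**
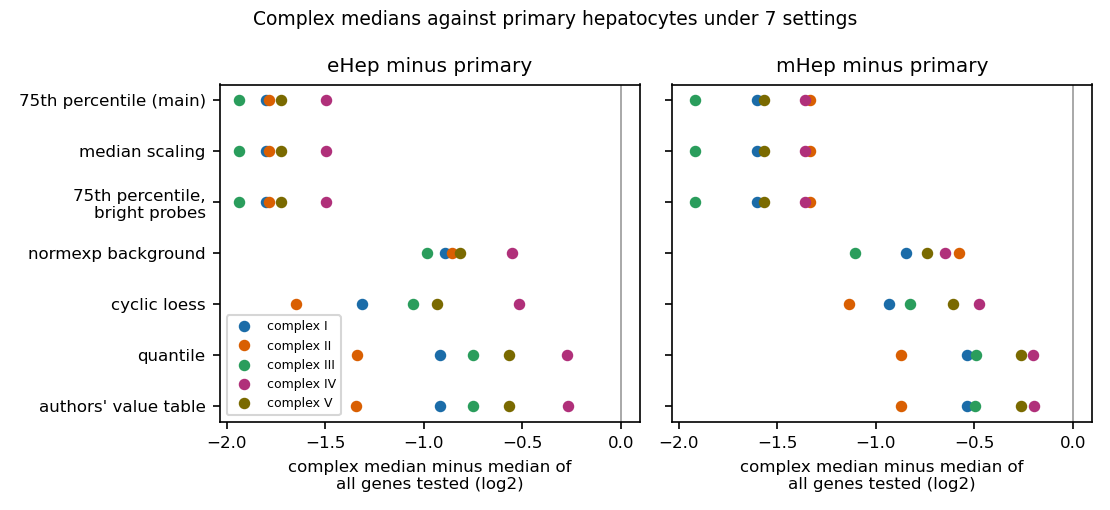
Median difference from primary cells of each complex minus the median of all genes tested (log2, horizontal axis), in eHep and mHep, under 7 ways of scaling or background correction (vertical axis). All points lie below 0, with complex IV in eHep at -1.49 under 75th percentile scaling and -0.27 under quantile normalization.

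Sdhb was the only subunit lower in both media. It read between 3.38 and 4.84 on the cultured arrays and 7.09 on the primary array, with no overlap. The difference was -3.02 ± 0.64 in eHep (SE, adjusted p = 0.0247) and -3.05 ± 0.64 in mHep (adjusted p = 0.0320). It remained below 0 in all alternatives, from -3.46 to -1.46, but the call was lost in both media under quantile normalization (adjusted p = 0.0727 and 0.106), in the authors' deposited value table (adjusted p = 0.0730 and 0.106) and without C57B6-No1 (adjusted p = 0.156 and 0.195). In mHep it was also lost with normexp background correction (adjusted p = 0.0606) and median scaling (adjusted p = 0.0588). Of the other complex II members, Sdha differed by -2.20 and -1.59, Sdhc by -1.73 in both and Sdhd by -1.67 and -1.57, none past the threshold. A second bright probe of Sdha gave only -0.77 in eHep and -0.87 in mHep. The other member called in eHep was Atp5sl, at -2.33 ± 0.55 (adjusted p = 0.0358). Its call was lost in 5 of 17 alternatives: normexp (adjusted p = 0.0732), median scaling (0.0707), the mean of all probes (0.0524), and without C57B6-No1 (0.230) or 129S1-No2 (0.0638). Despite its name it is no part of complex V, and it now carries the name Dmac2. Of the 22 core catalytic subunits, Sdhb was thus the 1 called in each medium, where 15% of all genes were called in eHep and 9.95% in mHep.

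Cox6a2 was the member called higher in mHep, at 3.01 ± 0.69 (adjusted p = 0.0422), with 2.13 in eHep (adjusted p = 0.0888). Since the primary reading was not well above background, the difference is a bound, at least 1.68-fold higher in mHep, and no bound above 1 could be given for eHep. The call was lost in 8 of 16 alternatives, with adjusted p-values over all of them from 0.00406 to 0.899. With normexp background correction the difference was 0.13 in mHep and -0.53 in eHep. Quantile normalization gave 5.42 in mHep and 4.55 in eHep.

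Among the other members, the lowest differences in eHep were those of Ndufa3 (-2.90), Ndufb10 (-2.83), Ndufb11 (-2.82), all accessory subunits of complex I, and Atp5e (-2.81), the epsilon subunit. None of them passed (adjusted p from 0.0531 to 0.137). At the other end, Ndufs1 stood at 4.67 ± 0.37 in eHep, 4.90 ± 0.44 in mHep and 4.37 in primary cells, a difference of 0.30 ± 0.60 and 0.53 ± 0.60. Ndufs3 and Ndufs8 of the same arm of complex I differed by -2.20 and -1.96 in eHep. Cox7c differed by -0.22 ± 0.97 in eHep and -0.21 ± 0.97 in mHep. Its cultured levels ran from 2.82 to 6.13, with the 2 earlier-scan arrays of C57B6-No1 lowest at 2.98 and 2.82, and its primary level was 4.81.

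Within the earlier scan, which holds the primary array and 2 arrays of each medium, 61 members were lower in eHep and 44 in mHep. The shares of all genes called there were 36.2% and 26.3%. The member medians were -2.42 and -2.30, and Sdhb differed by -3.46 and -3.24. With the 3 arrays of C57B6-No1 alone against the primary array, 36 and 19 members were lower, where 32.7% and 26.8% of all genes were called.

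Levels of most members varied together from array to array. Over the 14 cultured arrays the level of a member correlated with the median of the others at r = 0.91 in the median, above 0.9 for 43 of 80 members. The arrays share mice, scans and the scaling, and after quantile normalization the median r was 0.55, above 0.9 for 1 member. Sdha (r = -0.47), Cox6a2 (-0.40), Ndufb5 (0.13), Ndufs1 (0.17) and Cox7a1 (0.31) followed the others least.

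Mitochondrial DNA codes for 13 further subunits, of which 4 had probes. ND4, of complex I, read 6.21 ± 0.27 in eHep, 6.52 ± 0.34 in mHep and 8.71 in primary cells. It was lower in eHep by a difference of -2.50 (adjusted p = 0.0290), and in mHep the difference was -2.19 (adjusted p = 0.0567). CYTB differed by -2.21 and -2.19, COX2 by -2.12 and -2.38 and ATP6 by -1.72 and -1.88, none past the threshold. The file places the probes of COX2 and ATP6 on chromosome 1, where a nuclear copy lies, so their source is uncertain. Between media the 4 differed by -0.25 to 0.31, and none passed.

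The genes around the complexes were counted by list. Of all genes tested, 1.86% were called between media, 15% in eHep against primary cells and 9.95% in mHep. Of 14 complex I assembly factors, 0 passed between media. Ndufaf6 and Foxred1 were lower than primary cells in both media, by -2.07 and -2.29 in eHep and by -2.33 and -2.14 in mHep. Of 25 assembly factors of complexes II to V, none passed in any of the 3 comparisons, nor did any of 76 mitochondrial ribosomal proteins, whose medians against primary cells were -1.14 and -1.36. Among 21 TCA cycle genes none passed between media, and 3 were lower in eHep than in primary cells. They were Pcx, pyruvate carboxylase (-6.70 ± 1.27, adjusted p = 0.0175), Pdk4, a kinase that shuts pyruvate out of the cycle (-3.04, adjusted p = 0.0278), and Fh1, fumarase (-2.49, adjusted p = 0.0470).

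Carriers and donors of electrons gave 4 genes lower in eHep and 2 in mHep of 19 tested. Prodh, proline dehydrogenase, was lower by -4.88 ± 0.50 in eHep and -5.03 ± 0.50 in mHep (adjusted p = 0.00278 and 0.00305). Etfdh, which feeds electrons from fat oxidation to ubiquinone, was lower in eHep by -2.36 (adjusted p = 0.0486). Coq3 and Chdh were below the detection limit throughout eHep (not well above background) and are given as bounds, at least 13.3-fold and 121-fold higher in primary cells. Of 10 genes for the ATP synthase inhibitor, carriers and uncouplers, 1 was higher in each medium and none passed between media. This was Slc25a4, the ADP/ATP exchanger of heart and muscle, which stood at 6.99 ± 0.32 in eHep, 6.69 ± 0.33 in mHep and 1.76 in primary cells. The differences were 5.23 and 4.93 ± 0.56 (adjusted p = 0.00322 and 0.00430).

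Of 22 regulators of mitochondrial biogenesis, 1 rose between media. Ppara, a nuclear receptor of fat oxidation, went from -3.93 ± 3.24 in eHep to 1.60 ± 1.82 in mHep, a rise of 5.53 ± 0.65 (SE, adjusted p = 0.0206), against a primary level of 5.09. Sirt3, a mitochondrial deacetylase, was lower than primary cells by -3.95 in eHep and -3.67 in mHep (adjusted p = 0.0104 and 0.0182). Mterfd3 was higher in both, at least 5.75-fold in eHep and 6.05-fold in mHep, since its primary reading was not well above background. Of 17 hypoxia targets none passed between media, with a median of 0.63. Hk2, a hexokinase little expressed in adult hepatocytes, was at least 28.1-fold higher in eHep and 18.6-fold in mHep than in primary cells, where it was not well above background.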

How the data were processed

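RNA was hybridised to 15 one-colour Agilent arrays, with spot intensity deposited by the authors as Feature Extraction output (versions 10.7.1.1 and 10.7.3.1, per the file headers; total RNA by TRIzol, per the labels' protocols). The background-subtracted processed intensity was taken as log2, spots of a probe were averaged without outlier spots, and the 75th percentile of each array was subtracted. The authors' deposited log2 value table, whose scaling and centring are not stated in the sources used here, tracked these log2 intensities at r of 0.972 or more on each array and was an alternative. Probe positions are mm9, per the file headers.

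Genes entered a test if every array of 2 or more mice in one medium read them well above background, or, in comparisons with primary cells, if the primary array did. For fits within and between 129S1-No1 and C57B6-No1, every array of 1 of these mice in 1 medium was enough. limma 3.58.1 in R 4.3.3 gave Benjamini-Hochberg adjusted p-values over all genes tested, with a threshold of 0.05 and, against primary cells, a log2 difference of at least 1. mHep minus eHep used 6 mouse means with mouse as a block. The blocks are the mice named in the labels, and deviations of the same mouse in the 2 media correlated at 0.40, 0.57 and 0.54. Differences between mice used the 12 arrays of 129S1-No1 and C57B6-No1. The scripts were tested on simulated data.

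The members and lists were chosen with earlier results of these data known. Values by sample were given for members past a threshold with the largest differences, or with 1 sign in all mice, and for isoforms and core subunits. The values of 1 member are not reported here, and it is kept in the counts and medians. Of each companion list up to 4 genes past the threshold were named. Cell type lists were markers of hepatocytes, dividing cells, fibroblasts, endothelium, macrophages, bile ducts and muscle. The proliferation list summed to between 4.49 and 7.15 in eHep, 1.33 and 3.50 in mHep and to 2.36 in primary cells (log2). The fibroblast list summed to 3.93 to 5.04, 3.75 to 4.86 and 3.82, and the biliary list to 8.07 to 9.27, 7.22 to 9.73 and 2.40. Alternatives were other backgrounds, scalings, filters, probe rules, models, scans and left-out mice or arrays; cyclic loess, the fits by scan that include primary cells, scan as a term and the set without 4 non-subunits were chosen after seeing the data.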

Additional observations from a re-analysis of the deposited data

Results flagged for a closer look

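Of 160 groups of 7 arrays (80 members in each medium), 20 held an array set apart from the others by a gap above Dixon's 95% critical value, where chance gives about 1 in 20 groups of independent arrays. The 7 arrays of a medium are 3, 3 and 1 arrays of 3 mice over 2 scans, so they are not independent. In eHep the array of 129S1-No2 was low for 12 members, among them Atp5g1 (4.06), Atp5h (5.83), Atp5l (5.24), Cox6b2 (-3.01), Ndufa1 (4.95), Ndufa7 (5.78), Ndufa12 (5.45), Ndufc2 (5.55), Ndufs6 (4.40), Uqcr10 (6.38) and Uqcrfs1 (4.54). For Ndufs6, an accessory subunit of complex I with the widest gap of these, the other 6 arrays read 5.80 to 6.11. The 129S1-No2 array is the only eHep array of its mouse, and it was also the lowest of the 15 in the median of all members (4.93) and of other genes of like brightness (4.79). In mHep array 1 of C57B6-No1 was high for 7 members: Atp5g2 (7.69), Cox4i1 (8.67), Ndufa11 (4.76), Ndufa12 (7.45), Ndufb7 (7.57), Sdhc (5.32) and Uqcrc1 (6.49). It was also the highest mHep array in the medians of all members (6.71) and of like-bright genes (6.14). In eHep array 3 of C57B6-No1 was high for Ndufb5 (1.72), where the others read 1.17 to 1.29.

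The change of Cox7a1 from eHep to mHep differed between C57B6-No1 and 129S1-No1 by 3.26 (limma interaction term, adjusted p = 0.0310).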

How the results depend on the processing

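No member followed through the alternatives changed direction from its main value where either value was called. Medians were not judged in this way, and some changed sign. The median of all members between media ran from -0.44 to 0.33. Between media, the count of members called was 0 in each scaling, filter and background setting. It was 1 higher and 3 lower with 14 arrays and mouse as a term, where 34.4% of all genes were called. It was 1 and 2 with slide added (complex III at -0.35) and 1 and 6 with scan added. Within the earlier scan it was 1 higher, and within the later scan 2 higher and 14 lower, where 50.3% of all genes were called. The shares of all genes with slide added, with scan added and within the earlier scan are not given here. The member counts of those fits therefore have nothing to be set against. Leaving out 1 mouse gave 0 to 1 higher and 0 lower, where 528 to 1206 of all genes were called. Without the replicate block, the members called stayed at 0 higher and 0 lower, and 2 genes of all were called. Over all alternatives the count of all genes called ran from 2 to 7339 between media, 737 to 8429 for eHep and 296 to 8782 for mHep against primary cells.

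For eHep and mHep against primary cells, members called lower were 1 and 0 with normexp, 1 and 0 with median scaling, 7 and 3 with cyclic loess, 10 and 9 with no filter, 4 and 2 with the strict filter and 8 and 3 with trend and robust settings. Of all 15176 genes, 1823 and 980 were called in either direction with normexp and 2389 and 1581 with median scaling. Cyclic loess called 2330 and 1545 of them, no filter 8429 and 8782 of 27376, and the strict filter 1126 and 657 of fewer genes. The number of all genes called with trend and robust settings is not given here. The mean of all probes gave 2 lower in mHep, where 1425 genes were called. The set without 4 non-subunits gave 1 in eHep, where the genes called were the 2272 of the main fit. With C57B6-No1 alone they were 36 and 19, within the earlier scan 61 and 44, and with 1 mouse left out 0 to 9 and 0 to 4. Quantile normalization and the authors' deposited table each gave 1 higher and 1 lower in eHep, where 2998 and 3004 genes were called. The single higher member of mHep was lost (0 higher) with normexp, cyclic loess, the strict filter, trend and robust settings, C57B6-No1 alone, the earlier scan and each left-out mouse. The member median in mHep was -1.25 with normexp, -1.40 with median scaling, -1.30 with the percentile over bright probes, -2.30 within the earlier scan, -0.86 with loess, -0.22 with quantile and -0.21 in the authors' table. In eHep it was -1.11 with loess and -0.40 with quantile and the authors' table.

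Medians of complexes I to V relative to all genes, eHep then mHep, were -0.89, -0.86, -0.98, -0.55, -0.82 and -0.85, -0.58, -1.11, -0.65, -0.74 with normexp. With quantile normalization they were -0.92, -1.34, -0.75, -0.27, -0.57 and -0.54, -0.87, -0.49, -0.20, -0.26, and the same to 2 decimals in the authors' table. With no filter they were -0.39, -0.37, -0.52, -0.18, -0.31 and -0.25, 0.025, -0.56, -0.064, -0.21. Cyclic loess gave -1.05, -0.52 and -0.93 for III to V in eHep, and -0.93, -0.82, -0.48 and -0.61 for I, III, IV and V in mHep. The earlier scan gave -1.92, -1.57, -2.08, -1.70 and -1.87 in mHep. The mean of all probes gave -1.29 for II in eHep, and -1.32, -1.09, -1.44 and -1.15 for I, II, III and V in mHep. The strict filter gave -1.70 and -1.35 for III and V in mHep, C57B6-No1 alone -1.81 for III, and left-out mice -1.98 to -1.77 for III.

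In the contrast of C57B6-No1 with 129S1-No1, members called higher were 3 with quantile (median 0.069), 3 in the authors' table (0.068), 3 with loess (1 lower, median 0.036), 2 with median scaling, the strict filter and the mean of probes, and 4 with the percentile over bright probes. Of all 15747 genes, 2979 were called with quantile, 2980 in the authors' table, 2992 with loess and 2828 with the percentile over bright probes. The count was 2462 with median scaling, 2375 with the mean of probes and, of fewer genes tested, 1324 with the strict filter. Members called higher were 35, with 1 lower, without the earlier-scan arrays, where 36.4% of all genes were called. Leaving out array 1, 2 or 3 of each gave 0 to 6 higher and 0 to 1 lower, where 275 to 2755 of all genes were called. The cause of these shifts was not tested. The 3 mice and 1 primary array, with the primary array's lower signal, limit the precision.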
